A study of Mus musculus with 30 samples.

Results

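Hippocampus and brain of the same 3 wild-type (WT) mice were compared across all genes on 6 of the 30 arrays of the series, with 3 arrays for each tissue. The arrays were chosen by their labels, as all arrays of genotype WT, and both tissues of a mouse were matched by the mouse number in the titles (mice 10, 11 and 12). The WT mice were females of the strain label C57BL/6j, aged 15 to 20 months, perfused with PBS after death, and RNA of each mouse and tissue was put on 1 array without pooling. The labels call the second tissue only brain, and the study describes it as the brain without the hippocampus. The other 24 arrays held both tissues of 12 mice of the same age range and served for the spread of the tissue difference between mice and for a comparison of genotypes. They came from JHT females, which lack B cells through a deletion at the immunoglobulin heavy chain locus (2 mice), from females (2 mice) and males (3 mice) of the 3xTgAD model of Alzheimer's disease, and from females (2 mice) and males (3 mice) of their cross, JHT_3xTgAD.

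The hippocampus is a fold of the medial cerebral cortex that is needed for forming new memories of places and events. Its signal path runs from granule cells of the dentate gyrus through pyramidal cells of CA3 and CA2 to those of CA1, and the granule cell layer keeps adding neurons in adult rodents. The rest of a mouse brain joins parts of quite different origin, among them neocortex, striatum, thalamus, hypothalamus, midbrain, cerebellum, brainstem and choroid plexus.

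Each array had 62976 spots, and 55.5% to 58.8% of the probes of a WT hippocampal array and 55.8% to 61.1% of those of a WT brain array were well above background by the scanner software. No spot was saturated. The 75th percentile of the processed signal was 841 to 1320 in the WT brains but 495 to 535 in the hippocampi, before quantile normalization made the distributions equal. All 3 WT hippocampal arrays lay on one slide and all 3 WT brain arrays on another, so that slide and tissue cannot be told apart within WT. The only array that crossed the split was the brain array of 1 JHT_3xTgAD male, which lay on the slide of the WT hippocampi.

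Of 36717 genes and transcripts, 9569 (26.1%) differed between hippocampus and brain in limma's test at an adjusted p under 0.05, with 4680 (12.7%) higher and 4889 (13.3%) lower in the hippocampus. Differences are given throughout as hippocampus minus brain on the log2 scale of the normalized signal, with limma's standard error (SE) and n = 3 mice. The SE rests on a spread pooled over all 15 mice of the series, of several genotypes and both sexes. Of the 21367 genes with a symbol 30.2% were called, 12.2% as higher and 18% as lower, and these shares are the background for the gene groups below, whose counts are out of all matched genes. Among the 15810 of them that were well above background on at least 3 of the 6 WT arrays, 38.2% were called, 15.6% as higher and 22.6% as lower. With each array scaled to its 75th percentile in place of quantile normalization, 11957 genes were called, 69.0% of them higher in place of 48.9%, and the median of all genes moved by 0.32. With slide in place of the mouse as block, 4973 genes were called with a random and 2684 with a fixed block, of which 4888 and 2134 were also called with the mouse as block.

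The large differences lay mostly on the side of the brain. A called difference of at least 1 on the log2 scale was seen for 1417 genes that were higher and 2012 that were lower in the hippocampus, while at least 3 was reached by 26 and 268 genes, and at least 5 by 2 and 49. Many of these are fitted differences against a tissue where the probe was not well above background, and of the genes well above background on all 6 arrays 10 and 62 reached 3, and 0 and 9 reached 5. Detection was likewise uneven. Well above background on all 3 brain arrays and on no hippocampal array were 451 genes, 307 of them with a symbol, against 116 genes with the opposite pattern, 40 of them with a symbol. Without regard to a test, the 3 values of one tissue lay all above the 3 of the other for 17237 genes (46.9%). The SD between mice of a gene had a median of 0.141 in the hippocampus and 0.152 in the brain on the log2 scale. These medians are over the genes and transcripts well above background on at least 3 of the 6 WT arrays. Of the genes named below, Avp, Chrm2, Foxp2, Kcne2, Slc5a7 and Tph2 were well above background on 2 of the 3 hippocampal arrays and Chrna6, Gbx2, Lhx5 and Slc6a4 on 1, so that their differences are partly against background signal.

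The 10 genes with the largest fitted difference on each side are described first, without an order, since 3 on the hippocampal side and 8 on the side of the brain were on no array of the other tissue well above background and have only a bound. On the hippocampal side 5 of the 10 were listed markers of granule cells or CA1 pyramidal cells, and 4 were so among the 10 with the largest difference of the genes well above background on all 6 arrays. The lists were chosen with earlier results of these data known, so these counts are no test. Dsp, which encodes the junction protein desmoplakin, had log2 signals of 10.10, 10.07 and 10.71 in the hippocampi of mice 10, 11 and 12 and of 4.99, 5.01 and 5.63 in their brains, and was well above background on 2 of the 3 brain arrays. Lct, the lactase gene and a granule cell marker, gave 12.73, 12.44 and 12.97 against 7.23, 7.76 and 8.36. In both genes every hippocampal array was above every brain array, by 5.08 ± 0.29 for Dsp (33.8-fold, adjusted p = 1.7e-06) and by 4.93 ± 0.28 for Lct (30.5-fold, adjusted p = 1.6e-06) in limma's test. Spink8, a serine protease inhibitor of CA1 pyramidal cells, gave 13.88, 13.55 and 13.30 against 8.60, 8.88 and 9.65, a difference of 4.54 ± 0.31 (23.2-fold). Fibcd1, a membrane receptor of the same cells, gave 10.89, 10.43 and 9.96 against 5.84, 5.63 and 6.53, a difference of 4.43 ± 0.27 (21.5-fold). In these 2 CA1 genes mouse 12 was the lowest of the hippocampi and the highest of the brains, yet the tissues stayed more than 3 log2 units apart.

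Slc9a4, a sodium-hydrogen exchanger, was well above background on every hippocampal array and on no brain array. Its log2 signals were 9.20, 9.19 and 9.23 in the hippocampi and 2.39, 3.45 and 4.28 in the brains, and it was at least 28.3-fold higher in the hippocampus (adjusted p = 4e-05). The vasopressin receptor gene Avpr1b, known from CA2, gave 7.04, 6.91 and 6.50 against 2.24, 2.30 and 2.25 and was at least 5.57-fold higher (adjusted p = 7.6e-05). C4bp, a regulator of the complement cascade, was at least 6.34-fold higher with the same pattern of detection (adjusted p = 7.8e-08). The anion exchanger Slc26a4 was very even among hippocampi, at 12.66, 12.73 and 12.72, against 8.36, 9.05 and 9.29 in the brains, which is 3.81 ± 0.20 or 14-fold. The remaining leading genes were Krt2, a keratin, with 4.51 ± 0.42 and well above background on 2 of the 3 brain arrays, and C1ql2, a synaptic protein that granule cells release from their mossy fibres, with 3.87 ± 0.21. A second probe of Krt2, well above background on all 6 arrays, differed by 1.43.

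**Figure D1:**
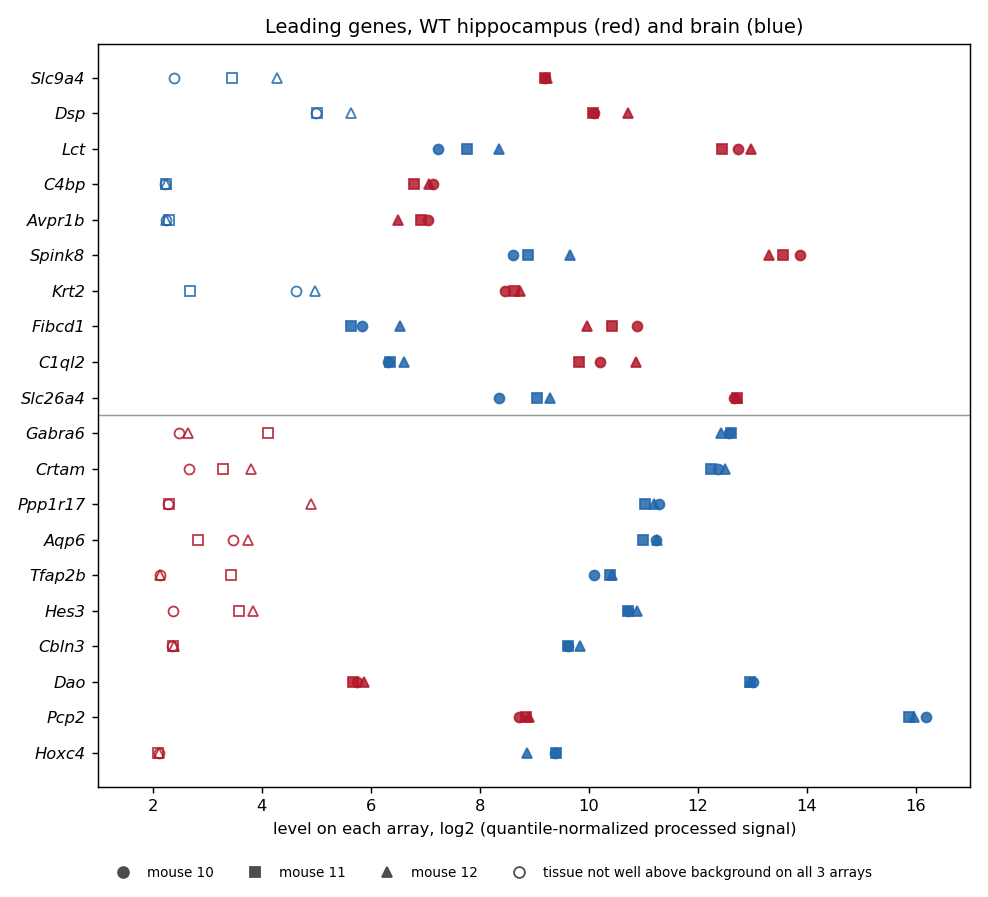
Log2 of the quantile-normalized processed signal on each of the 6 WT arrays for the 10 genes with the largest fitted and called difference in each direction, with red for hippocampus, blue for brain, one marker shape per mouse, and open markers where the tissue was not well above background on all 3 of its arrays. The tissues do not overlap for any of the 20 genes, and 8 of the 10 genes that led in the brain were not well above background on any hippocampal array.

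Granule cell genes were mostly higher in the hippocampus. Of 12 listed markers 9 were higher and 2 lower, with a median difference of 1.03 beside −0.09 over all genes with a symbol that were well above background. The fit on only the WT arrays with the mouse as block called 5 higher and 1 lower. Prox1, the transcription factor that keeps granule cell identity, gave 8.97, 8.57 and 9.28 against 7.18, 6.74 and 7.14, a difference of 1.92 ± 0.14 (adjusted p = 6.9e-06). The cation channel gene Trpc6 followed with 1.79 ± 0.27 and Fam163b with 1.27 ± 0.17. The exceptions were Calb1, the calcium buffer calbindin, which is also made in large amounts by Purkinje cells, with −1.50 ± 0.16, and Plk5, a kinase of the polo-like family, with −0.95 ± 0.15.

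Pyramidal cell genes were mostly higher in the hippocampus too. Of 11 markers of CA2 and CA3, 7 were higher and 2 lower, with a median of 1.18. Ntf3, the growth factor neurotrophin 3, gave 10.45, 10.46 and 10.86 against 8.28, 8.30 and 8.59 (2.20 ± 0.27), the CA2 signalling regulator Rgs14 differed by 1.64 ± 0.15, the kainate receptor subunit Grik4 by 1.54 ± 0.13 and the copine Cpne4 by 1.48 ± 0.15. Pcp4, a calmodulin regulator that marks CA2 and is abundant in Purkinje cells and striatum, was lower in every hippocampus, at 14.54, 14.95 and 14.94 against 16.67, 16.83 and 16.82 (−1.96 ± 0.10), and so was the AMPA receptor auxiliary subunit Cacng5 (−1.15 ± 0.17). Of 7 CA1 markers 4 were higher and none lower, with a median of 0.67, and beside Spink8 and Fibcd1 these were the transcription factor Pou3f1 (1.35 ± 0.22) and Mpped1 (0.67 ± 0.17). The call of Mpped1 was lost without mouse 10 (adjusted p = 0.12) or without mouse 11 (adjusted p = 0.1). The count of higher CA1 genes was 3 without either of these mice or with slide as a random block. It was 2 with slide as a fixed block, and also with only the WT arrays and the mouse as block.

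The hippocampal samples differed from each other in these groups. Mouse 12 had the highest hippocampal level for 11 of the 12 granule cell genes and the lowest for all 7 CA1 genes, beside 32.4% and 40.2% over all genes with a symbol that were well above background. The summed signal of the granule cell list was 48038, 43526 and 66671 in the hippocampi of mice 10, 11 and 12, against 23993 to 26214 in the brains. For the CA1 list it was 72478, 75299 and 46792, against 30576 to 35196. The sum of the CA2 and CA3 list, which holds Pcp4, was lower in the hippocampi, at 77692, 78628 and 88555 against 122980 to 137830. Of its 10 genes well above background, 7 were highest in the hippocampus of mouse 12. In such bulk tissue, a smaller share of a cell type and less RNA per cell cannot be told apart, and whether the dissections held different shares of the hippocampal fields was not tested.

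**Figure D2:**
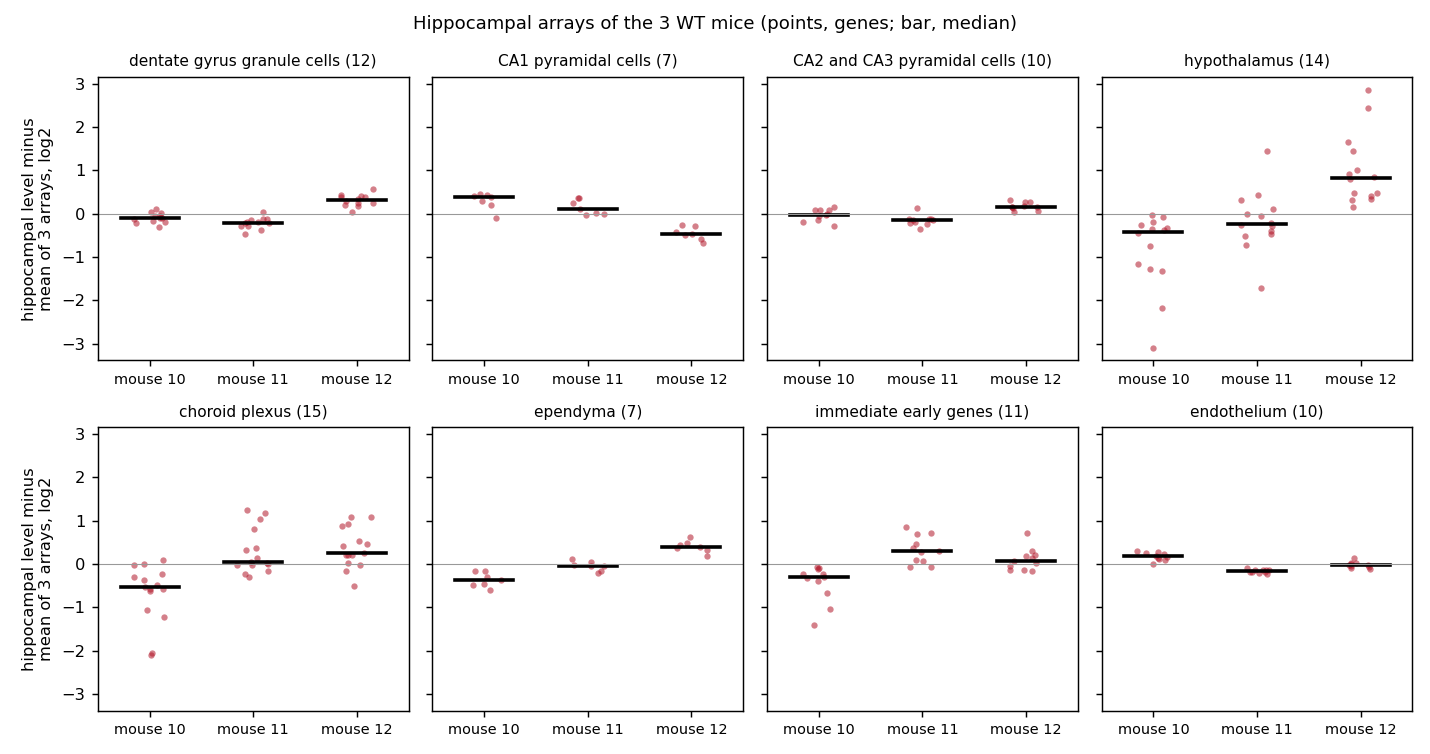
Level of each listed gene on the hippocampal array of each WT mouse, as log2 signal minus the mean of the 3 hippocampal arrays, for 8 gene lists with the number of genes plotted, where points are genes and bars their medians. Mouse 12 lies highest for granule cell, hypothalamus and ependyma genes and lowest for CA1 genes, and mouse 10 lies lowest for choroid plexus and immediate early genes.

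Transcription factors of the pallium, the embryonic source of hippocampus and cortex, were higher in the hippocampus as a group. Of 12 listed, 10 were higher and 1 lower, with a median of 1.20. Neurod6, a basic helix-loop-helix factor of pyramidal neurons, gave 13.04, 12.77 and 12.69 against 10.03, 10.10 and 10.24, a difference of 2.70 ± 0.12 (6.51-fold). The zinc finger factors Bcl11b (1.86 ± 0.17), Fezf2 (1.78 ± 0.19) and Zbtb20 (1.59 ± 0.21), the last needed for the hippocampal field identity, were also higher. Tbr1 was lower by the probe used (−0.37 ± 0.11), while another probe of the gene that was well above background gave 0.64, and its call was lost without mouse 10 (adjusted p = 0.071) or mouse 12 (adjusted p = 0.23).

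On the side of the brain, 4 of these 10 genes were listed markers of the cerebellum, and 3 were so among the 10 with the largest difference of the genes well above background on all 6 arrays. This list too was chosen with earlier results of these data known. Gabra6, the GABA-A receptor subunit of cerebellar granule cells, gave 12.56, 12.61 and 12.43 in the brains and 2.48, 4.11 and 2.64 in the hippocampi, where it was on no array well above background. It was at least 263-fold lower in the hippocampus (adjusted p = 4.5e-08). Crtam, an adhesion molecule, was at least 235-fold lower, with 12.36, 12.25 and 12.50 against 2.66, 3.29 and 3.81. The Purkinje cell gene Ppp1r17, a phosphatase inhibitor, was at least 98.7-fold lower and the granule cell cerebellin Cbln3 at least 36.6-fold. Pcp2, a Purkinje cell protein, was well above background in both tissues, at 16.18, 15.87 and 15.97 in the brains and 8.71, 8.84 and 8.91 in the hippocampi, and was 146-fold lower (−7.19 ± 0.16, adjusted p = 4.1e-09). Dao, the D-amino acid oxidase of cerebellar and brainstem glia, was 147-fold lower (−7.20 ± 0.34), and at least 9.78-fold lower by a second probe that was on no hippocampal array well above background.

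Further genes among these 10 were the water channel Aqp6 (at least 102-fold lower in the hippocampus) and the transcription factors Hes3 (at least 77.7-fold), Tfap2b (at least 55.9-fold) and Hoxc4 (at least 26.2-fold). Hoxc4 gave 9.38, 9.39 and 8.86 in the brains and 2.11, 2.10 and 2.11 in the hippocampi. Of 15 cerebellar markers 14 were lower in the hippocampus and none higher, with a median of −4.30. The carbonic anhydrase-related gene Car8 of Purkinje cells differed by −6.20 ± 0.21, the synapse organizer Cbln1 by −4.98 ± 0.44 and the transcription factor Zic1 by −4.30 ± 0.40, or by −1.72 on its second probe. All 5 Zic genes were lower in the hippocampus, with differences of −4.30 to −1.37, and Zic5 was there on no array well above background. Most of these calls were lost with slide as a fixed block. The Zic genes, like the Hox, receptor and channel groups below that were taken by gene symbol, were chosen after values had been seen. The marker lists were likewise chosen with earlier results of these data known.

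Transcription factors that pattern the midbrain and hindbrain were mostly lower in the hippocampus. Of 26 listed, 22 were lower and none higher, with a median of −4.38, which came to −1.44 with median signals and normexp background correction, beside −3.71 for the cerebellar list. En2, which marks midbrain and cerebellum, gave 12.20, 12.22 and 12.23 in the brains and 7.55, 7.66 and 7.58 in the hippocampi (−4.62 ± 0.16, 24.6-fold). Irx2 was at least 34.9-fold lower by the probe used and at least 1.91-fold by a second probe, and the serotonin and brainstem neuron factor Gata3 at least 20.2-fold. Foxa2 of the ventral midline was at least 4.46-fold lower by the probe used alone, but a second probe, well above background on 1 hippocampal and 2 brain arrays, differed by −0.15.

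Hox genes, which give hindbrain and spinal cord their position along the body axis, were also compared as a family. Of the 39 matched, 17 were lower in the hippocampus and 1 was higher, and 21 were well above background on at least 3 of the 6 WT arrays. Hoxb5 gave 10.21, 9.91 and 9.05 in the brains and 2.10, 2.96 and 4.11 in the hippocampi and was at least 37.5-fold lower. The more posterior Hoxb8 was uneven among brains, at 9.12, 7.71 and 4.83, as were Hoxb7, at 8.26, 7.91 and 4.74, and Hoxc6, at 8.21, 7.83 and 6.04. In all of these mouse 12 had the lowest brain level, and the calls of Hoxb8 and Hoxb7 were lost without mouse 10 (adjusted p = 0.1 and 0.065) or mouse 11 (adjusted p = 0.07 and 0.052). The one gene called higher, Hoxa6, gave 5.81, 5.05 and 5.25 against 4.46, 4.37 and 4.53, and its call was lost without any 1 of the mice (adjusted p between 0.067 and 0.18). With 75th percentile scaling 7 Hox genes were called higher and 16 lower.

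**Figure D3:**
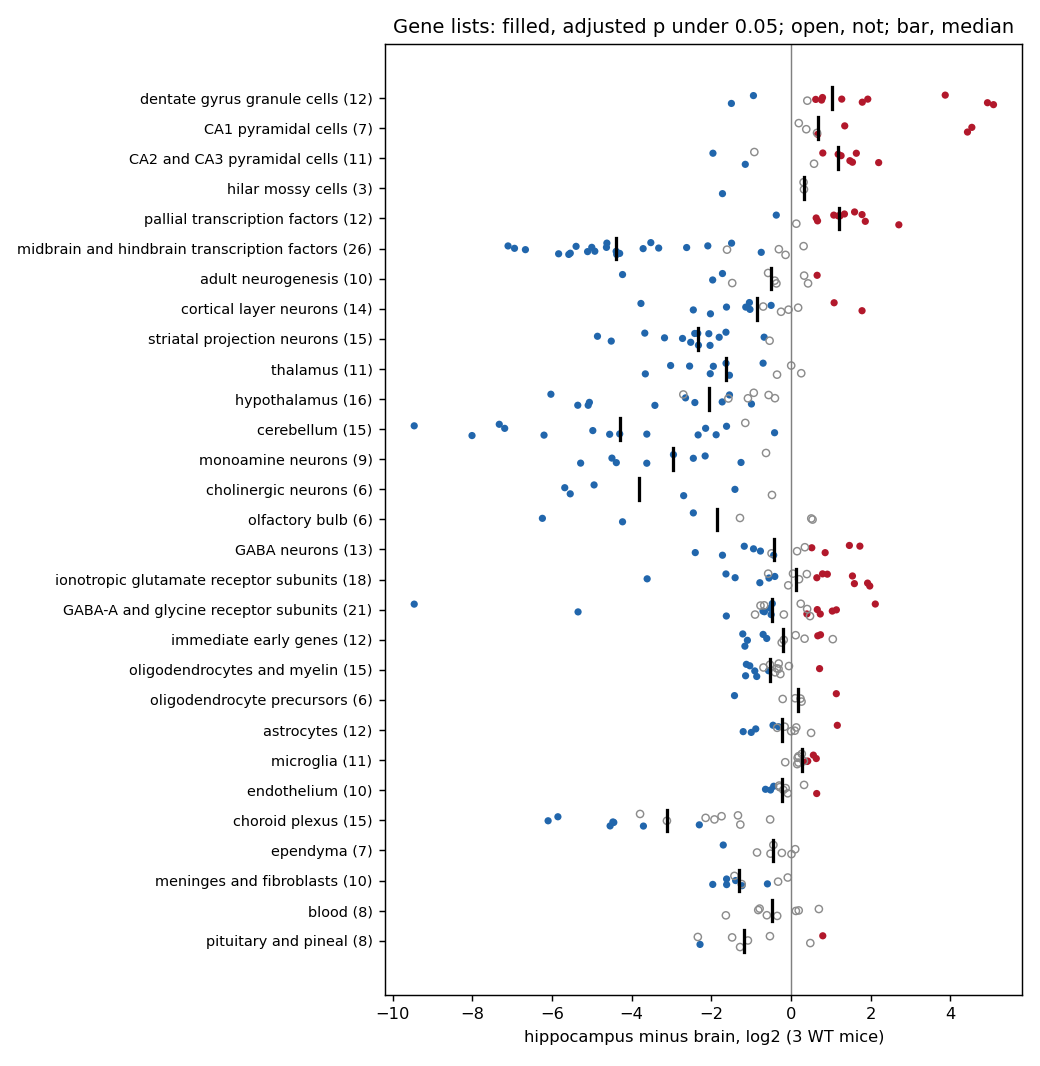
Difference between hippocampus and brain (log2) for each matched gene of 29 lists, with the number matched in brackets, where filled points passed the test (red higher, blue lower in the hippocampus), open points did not and bars are medians. Granule cell, CA1, CA2 and CA3 and pallial transcription factor genes lie mostly to the right, while the medians of hindbrain factors and cerebellum lie at −4.38 and −4.30.

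Genes of striatal projection neurons were lower in the hippocampus almost throughout, with 14 of 15 lower, none higher and a median of −2.34. Drd1 gave 6.89, 7.75 and 7.85 in the hippocampi and 10.11, 9.98 and 9.95 in the brains (−2.52 ± 0.33). Drd2, the other main dopamine receptor of these cells, was at least 4.84-fold lower. The adenosine receptor gene Adora2a differed by −3.18 ± 0.26, and the opioid peptide gene Penk gave 12.53, 12.89 and 13.58 against 15.76, 15.65 and 15.76 (−2.72 ± 0.30).

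Thalamic markers followed with 8 of 11 lower and none higher, at a median of −1.63. Slc17a6, the vesicular glutamate transporter VGLUT2 of subcortical neurons, gave 9.35, 10.02 and 9.82 against 12.35, 12.26 and 12.23 (−2.55 ± 0.27), the troponin gene Tnnt1 differed by −3.02 ± 0.23 and the kinase Prkcd by −2.03 ± 0.24. The transcription factor Gbx2 gave 3.07, 2.51 and 5.43 against 7.41, 7.01 and 7.58.

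Of 16 hypothalamic genes 10 were lower and none higher, with a median of −2.07. Pmch, the melanin-concentrating hormone gene, gave 5.06, 6.68 and 7.39 in the hippocampi and 12.31, 12.55 and 12.34 in the brains (−6.03 ± 0.51, 65.3-fold). The orexin gene Hcrt gave 6.10, 7.83 and 8.24 against 12.45, 12.48 and 12.41 (−5.06 ± 0.54, 33.4-fold). Among the hippocampi these genes varied widely, with a median SD of 0.75 over the listed genes well above background, beside 0.141 over all genes and transcripts well above background. Oxt, the oxytocin gene, gave 5.89, 7.81 and 10.5, and Avp, the vasopressin gene, gave 4.79, 4.24 and 8.80, both with the highest value in mouse 12. That mouse had the highest hippocampal level for 14 of the 14 listed genes that were well above background, and the reason was not tested. Without mouse 12 the count of lower genes was 10, and without mouse 10 it was 6, with the calls of Oxt (adjusted p = 0.088) and Avp (adjusted p = 0.064) lost. That of Avp was lost without mouse 11 as well (adjusted p = 0.057). The median of the list was −1.36 without mouse 10. With slide as a fixed block 3 genes of the list were called, and 5 with only the WT arrays and the mouse as block.

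Neurons that send monoamines or acetylcholine to the whole brain have their cell bodies outside the hippocampus, and their genes were lower there. Of 9 monoamine genes 8 were lower and none higher (median −2.95), and of 6 cholinergic genes 5 were lower and none higher (median −3.82). The dopamine transporter Slc6a3 gave 5.76, 5.97 and 6.12 against 10.97, 11.23 and 11.50 (−5.28 ± 0.57), and tyrosine hydroxylase, Th, gave 9.20, 9.17 and 9.51 against 11.99, 11.64 and 11.61 (−2.45 ± 0.20). Dbh, which makes noradrenaline, differed by −2.95 ± 0.21, the serotonin synthesis enzyme Tph2 by −3.62 ± 0.49, and the serotonin transporter Slc6a4 gave 2.41, 2.39 and 6.02 against 8.36, 7.30 and 8.65. The choline transporter Slc5a7 gave 3.03, 5.28 and 5.07 against 9.96, 10.38 and 10.08 (−5.68 ± 0.51), and Lhx8, a factor of forebrain cholinergic neurons, was at least 15.0-fold lower.

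Neocortical layer genes were mixed. Of 14 listed 2 were higher and 8 lower, with a median of −0.87. This median was −1.23 without mouse 11 and −0.54 without mouse 12. Scnn1a (1.08 ± 0.20) and Fezf2, named above, were higher, while Foxp2 of layer 6 (−3.77 ± 0.57, and at least 2.80-fold by a second probe), the signalling protein Rspo1 (−2.45 ± 0.31), Lamp5 (−2.02 ± 0.13) and the upper-layer factor Cux2 (−1.62 ± 0.35) were lower. Rspo1 stood apart in the hippocampus of mouse 12, at 9.92 beside 8.06 and 8.32. Without mouse 10 the count of lower genes was 5, and without mouse 12 it was 4, with Cux2 among those lost (adjusted p = 0.058). Of 6 olfactory bulb genes 3 were lower, namely Th, Eomes and Lhx5 (3.51, 2.32 and 5.11 in the hippocampi against 9.84, 9.81 and 10.03), each of which is also known from other brain parts.

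Genes of adult neurogenesis were not higher in the hippocampus as a group, with 1 of 10 (10%) higher, 3 (30%) lower and a median of −0.49. These shares are near the 15.6% and 22.6% of the genes with a symbol well above background. Dcx, which marks young neurons, gave 8.21, 8.53 and 8.32 against 8.49, 8.94 and 8.73 (−0.37 ± 0.25, adjusted p = 0.32). The 3 lower genes were Neurod1 (−1.97 ± 0.13), Eomes and Calb2 (−1.72 ± 0.32), which outside the dentate gyrus are known from cerebellar granule cells, from olfactory and cerebellar neurons and from interneurons of many regions. Eomes was at least 7.10-fold lower, or at least 2.31-fold by a second probe, and its call was lost without any 1 of the mice (adjusted p between 0.054 and 0.085). Of 3 markers of hilar mossy cells only Calb2 passed the test.

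Glutamate receptor subunits differed in both directions, with 7 of 18 ionotropic subunits higher and 6 lower. Higher were the AMPA subunit Gria1, at 14.37, 14.19 and 14.35 against 12.55, 12.99 and 12.61 (1.59 ± 0.11), and the NMDA subunits Grin2a, at 11.83, 11.57 and 11.54 against 9.42, 9.90 and 9.70 (1.97 ± 0.16, with 2.86 on a second probe), and Grin2b (1.92 ± 0.16). Lower were Gria4 (−1.63 ± 0.17), the motor neuron subunit Grin3b (−3.61 ± 0.48) and 4 others. Among 8 metabotropic receptors 3 were higher, among them Grm2 (1.23 ± 0.21) and Grm5 (1.0 ± 0.12, with 0.52 and 1.94 on other probes), and 3 lower, of which Grm8 differed by −1.17 ± 0.15. Leaving out any 1 mouse left 1 metabotropic receptor lower.

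GABA-A and glycine receptor subunits likewise differed in both directions, with 6 of 21 higher and 8 lower. Gabra5, the subunit of tonic inhibition in pyramidal cells, gave 12.39, 12.32 and 12.32 against 10.04, 10.37 and 10.28 (2.11 ± 0.16, 4.33-fold), and Gabra2 differed by 1.14 ± 0.18. Gabrd (−1.63 ± 0.12) was lower, and the spinal and brainstem glycine receptor gene Glra1 was at least 12.3-fold lower, or at least 2.16-fold by a second probe. With 75th percentile scaling 6 subunits were higher and 6 lower, and without 1 of the mice 4 or 5 were higher and 5 or 6 lower.

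Receptors of the modulatory transmitters differed in both directions as well. Drd5 was the only one of 5 dopamine receptors that was higher, at 9.56, 9.19 and 9.41 against 6.79, 6.81 and 6.99 (2.52 ± 0.13, 5.73-fold), and the other 4 were lower, with Drd3 at least 1.78-fold. Of 14 serotonin receptors 5 were higher and 5 lower, or 6 and 2 with 75th percentile scaling, and without 1 of the mice 3 or 4 were higher and 2 or 3 lower. Htr4 gave 10.08, 10.10 and 10.23 against 7.36, 7.83 and 7.76 (2.49 ± 0.17), Htr3a of cortical and hippocampal interneurons differed by 1.73 ± 0.18 and Htr1a by 1.18 ± 0.19, while Htr1d was at least 1.58-fold lower. The muscarinic receptor of pyramidal cells, Chrm1, was higher (1.73 ± 0.13) and Chrm2 lower (−2.29 ± 0.23). Among nicotinic subunits Chrna7 (1.70 ± 0.21) was higher and Chrna4 (−2.05 ± 0.20) and Chrna6 of dopamine neurons (4.28, 5.37 and 4.80 against 8.87, 8.97 and 8.99) were lower. Of 16 such subunits 2 (12.5%) were higher and 4 (25%) lower, shares near the background, or 2 and 2 with 75th percentile scaling, and 1 of the 4, Chrna3, was well above background on no WT array. The adrenergic receptor Adra1d gave 10.53, 9.96 and 10.73 against 8.03, 7.64 and 8.05 (2.5 ± 0.15).

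**Figure D4:**
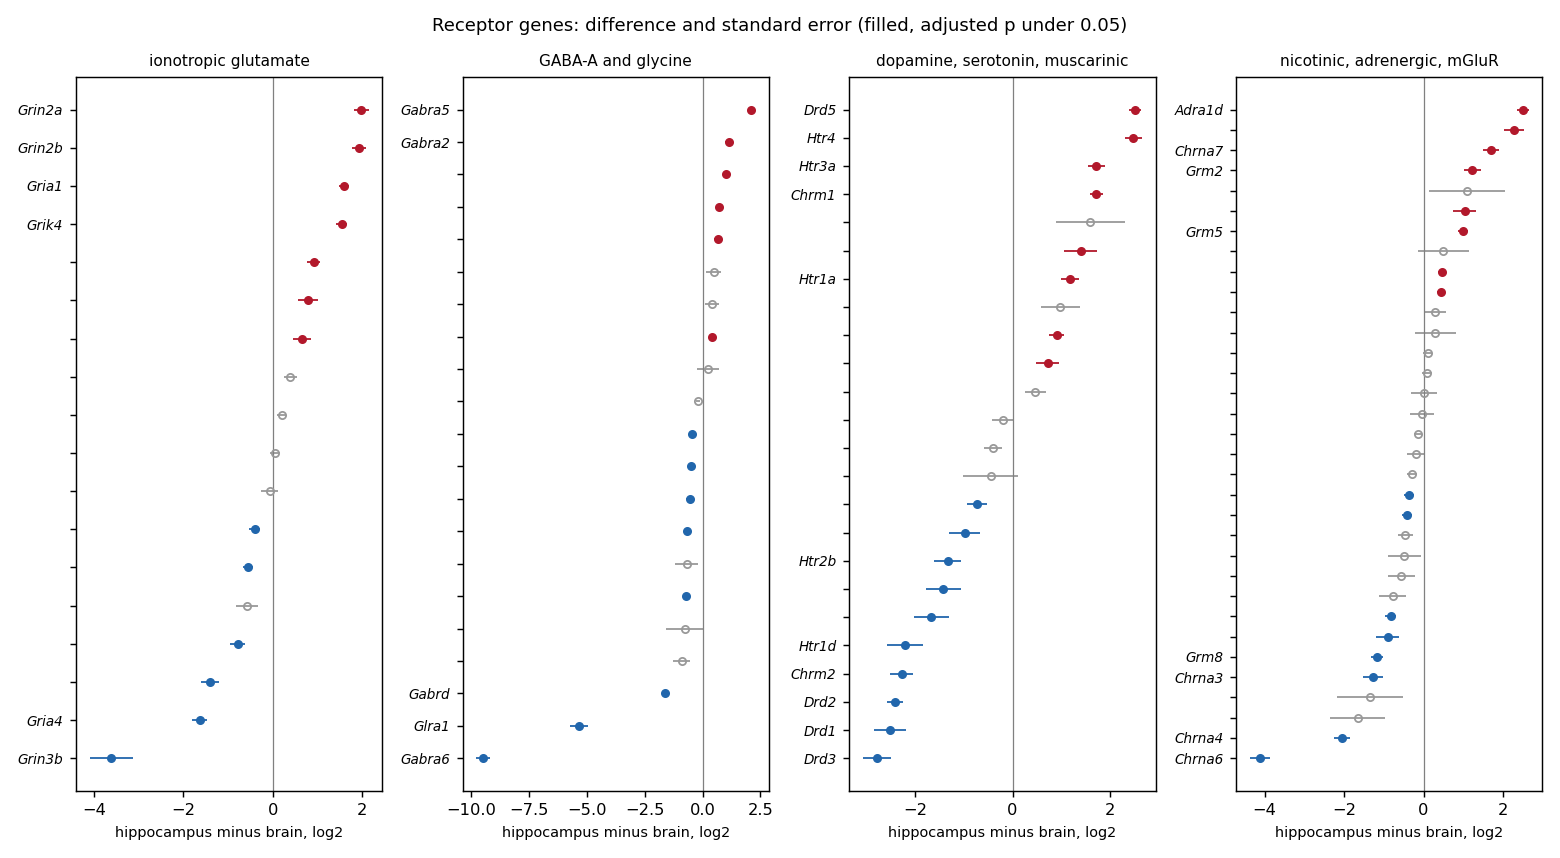
Difference between hippocampus and brain (log2) with its standard error for each matched gene of the neurotransmitter receptor groups, where filled points passed the test and names are given for the genes described in the text. Gabra5, Grin2a, Drd5, Htr4, Chrm1 and Adra1d lie to the right, Gabra6, Grin3b, Drd3, Chrm2 and Chrna6 to the left, and Htr2b and Chrna3 were well above background on no WT array.

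Receptors for hormones and peptides were compared too. Nr3c2, the mineralocorticoid receptor that binds corticosterone in hippocampal neurons, gave 9.53, 9.13 and 9.10 against 6.32, 6.08 and 6.27, a difference of 3.03 ± 0.25 (8.15-fold, adjusted p = 1.9e-05). Its relative Nr3c1, the glucocorticoid receptor, gave −0.28 ± 0.09 (adjusted p = 0.052) by the probe used, and another probe gave 1.04. Of 6 steroid hormone receptors 3 were higher and none lower, while the number lower was 1 without mouse 10 and 2 without mouse 0, the JHT_3xTgAD male of that number, or among the genes that passed the filter on dim probes, and with slide as a fixed block 1 was higher. Npy2r, a receptor of neuropeptide Y, gave 11.46, 11.45 and 11.80 against 8.25, 8.77 and 8.69 (3.00 ± 0.12, 8.01-fold), and of 32 neuropeptide receptors 6 (18.8%) were higher and 9 (28.1%) lower, or 9 and 8 with 75th percentile scaling, beside 15.6% and 22.6% of the genes with a symbol well above background. The lower ones included the opioid receptor Oprk1 (−2.18 ± 0.33) and the vasopressin receptor Avpr1a, at least 2.13-fold lower, whose call was lost without mouse 12 (adjusted p = 0.051).

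Genes of wiring and of ion channels were mixed as well. Of 14 Eph receptors, which guide axons, 7 were higher and 3 lower, from Epha6, at 10.77, 10.28 and 10.38 against 7.76, 7.95 and 7.92 (2.60 ± 0.15), and Epha7 (1.88 ± 0.15) to Epha8 (−3.18 ± 0.27). Without mouse 10 or without mouse 12, 4 of them were higher. Among 26 genes of voltage-gated calcium channels and their relatives 11 were higher and 6 lower, with Cacng8, an AMPA receptor partner, at 2.72 ± 0.29 and the thalamic and cerebellar T-type channel Cacna1g at −2.06 ± 0.33, or −0.98 on a second probe. Of 98 potassium channel genes 16 (16.3%) were higher and 22 (22.4%) lower, beside 12.2% and 18% of all genes with a symbol and 15.6% and 22.6% of those well above background. With 75th percentile scaling 24 were higher and 19 lower, and without mouse 10 the number lower was 14.

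Genes of GABA neurons were not uniform. Of 13 listed 4 were higher and 6 lower. The synthesis enzyme Gad1 (−0.77 ± 0.15) and the vesicular transporter Slc32a1 (−1.18 ± 0.15, or −0.34 on a second probe well above background on all 6 arrays) were lower, and Pvalb, the calcium buffer parvalbumin of fast-spiking interneurons and Purkinje cells, gave 12.72, 12.79 and 12.25 against 15.21, 14.90 and 14.86 (−2.40 ± 0.13). The peptide gene Cck, which pyramidal cells also make, was higher by 0.52 ± 0.08. Nos1 was higher by 1.46 ± 0.43, and its call was lost without any 1 of the mice (adjusted p between 0.085 and 0.13).

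Immediate early genes, which neurons switch on within minutes of activity, varied with the mouse in both tissues. Fos gave 8.07, 9.95 and 9.29 in the hippocampi and 9.41, 11.08 and 10.47 in the brains, with mouse 10 lowest and mouse 11 highest in each tissue. Within each mouse the hippocampus was lower, by −1.21 ± 0.25 on average (adjusted p = 0.0056), although the tissues overlapped across mice. Of 12 such genes 2 were higher, among them Egr4 (0.67 ± 0.13), and 5 lower, among them Egr1 (−0.70 ± 0.14). Without mouse 10 the counts were 1 and 3, without the block by mouse 2 and 2, and with slide as a random or as a fixed block these calls were lost.

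Glial genes differed in both directions. Of 15 oligodendrocyte genes 1 was higher and 6 lower, with a median of −0.53. Myelin basic protein, Mbp, gave 13.60, 13.78 and 13.72 against 12.88, 13.16 and 12.92 (0.71 ± 0.09, with 0.25 and 1.68 on other probes), while Mag, a myelin-associated glycoprotein, differed by −1.04 ± 0.25. The call of Mag was lost without mouse 12 (adjusted p = 0.062), where 2 genes of the list were lower, and without mouse 10 (adjusted p = 0.069). Either slide block, random or fixed, left 2 genes of the list lower. Of 12 astrocyte genes 1 was higher, the glutamate transporter Slc1a2 (13.63, 13.52 and 13.66 against 12.53, 12.40 and 12.40, 1.16 ± 0.11, with 1.07 and 1.87 on other probes), and 5 lower, among them S100b (−1.0 ± 0.20), and with slide as a random or as a fixed block 3 and 1 were lower.

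Microglial genes had 4 of 11 higher and none lower, at a median of 0.27. Tmem119 gave 11.22, 11.06 and 11.39 against 10.88, 10.45 and 10.45 (0.63 ± 0.12), and Csf1r, Cx3cr1 and Itgam differed by 0.42 ± 0.10, 0.39 ± 0.10 and 0.56 ± 0.17, where other probes of Csf1r gave 0.81 and 1.05. With slide as a random block these calls were lost, with slide as a fixed block the median was −0.07, and without mouse 12 the count was 1 and the median 0.16. The fit on only the WT arrays with the mouse as block called 0 of them. The calls of Cx3cr1 (adjusted p = 0.087) and Itgam (adjusted p = 0.14) were also lost without mouse 10, and that of Csf1r (adjusted p = 0.051) without mouse 11. Of 10 endothelial genes 1 (10%) was higher, the VEGF receptor gene Kdr (0.64 ± 0.18), and 3 (30%) lower. These shares are near the 15.6% and 22.6% of the genes with a symbol well above background. The endothelial calls were lost with slide as a random block. Without mouse 10 the number lower was 1, and without mouse 11 or mouse 12 it was 0. The call of Kdr was lost without any 1 of the mice (adjusted p between 0.051 and 0.19). The 8 genes of blood cells gave differences between −1.64 and 0.70, with adjusted p of 0.068 or above.

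Of 15 choroid plexus genes 7 were lower in the hippocampus, none was higher and 8 did not pass the test, with a median difference of −3.12 and a wide spread between mice. Ttr, transthyretin, an abundant product of that tissue, gave 8.81, 11.94 and 11.99 in the hippocampi and 17.01, 16.29 and 17 in the brains (−5.85 ± 1.49, adjusted p = 0.015). The channel subunit Kcne2 gave 2.13, 5.37 and 5.07 against 10.13, 9.97 and 10.76 (−6.10 ± 1.53), the factor Otx2 differed by −4.47 ± 0.89 and the chloride channel Clic6 by −3.71 ± 1.03. Mouse 10 had the lowest hippocampal level for 11 of the 15 genes, and the median SD over the list was 0.50. The summed signal of the list was 18687 to 22297 in the hippocampi and 135170 to 208650 in the brains. The count of lower genes was 1 without mouse 10, 3 without mouse 11 and 1 without mouse 12, and the calls of Ttr (adjusted p = 0.058) and Kcne2 (adjusted p = 0.064) were lost without mouse 12 as well as without mouse 10 (adjusted p = 0.1 and 0.093). That of Clic6 was lost without any 1 of the mice (adjusted p between 0.067 and 0.13). With slide as a random block 2 genes were called, and with slide as a fixed block all these calls were lost. In the other genotypes the list did not have one direction. Its median was 2.11 in JHT females, with all 15 genes above 0 and Ttr at 1.31, −1.27 in 3xTgAD females, 0.17 in JHT_3xTgAD females and −0.42 in 3xTgAD males, with no gene called in these groups, and −2.84 in JHT_3xTgAD males, with 4 called lower. How WT differed from JHT females alone was not tested.

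Genes of meninges and pituitary were uneven among mice too. Of 10 genes of meninges and fibroblasts 6 were lower, with the collagen gene Col1a2 at −1.62 ± 0.38 and the transporter Slc22a6 at −1.97 ± 0.48, but these calls were lost with slide as a random block, and 0 to 2 were called when 1 mouse was left out. Without mouse 10 the calls of Col1a2 (adjusted p = 0.084) and Slc22a6 (adjusted p = 0.095) were lost, and that of Slc22a6 also without mouse 12 (adjusted p = 0.066). Of 7 ependymal genes 1 was lower, and none was without any 1 of the mice or with slide as a block. Prl, the pituitary hormone prolactin, gave 9.81, 10.22 and 12.36 in the hippocampi and 11.66, 12.05 and 15.54 in the brains, with mouse 12 highest in both tissues. Its difference of −2.29 ± 0.75 lost its call without any 1 of the mice (adjusted p between 0.099 and 0.23), and the summed signal of the 8 matched pituitary and pineal genes was 51011 in the brain of mouse 12 beside 7064 and 7086 in the others. The part of these tissues in the other differences was not tested.

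The differences between tissues in WT were then set beside those in the other genotypes, which have other mice and share no sample with WT. They are not independent of slide, since in all groups hippocampal and brain arrays lay on different slides, but for 1 brain array. The JHT females lay on the same slides as WT. All groups were also normalized together and share the spread of the same fit. Of the 6045 genes with a symbol that were called in WT and well above background, 97.9% had the same sign in JHT females, 98.5% in 3xTgAD females and 97.8% in JHT_3xTgAD females, and 3260, 3450 and 4283 of them were also called there in the same direction, against 0, 2 and 5 called in the opposite one. In males, 98.9% had the same sign in 3xTgAD and 97.0% in JHT_3xTgAD, and 4844 and 3813 were called the same way against 4 and 1. Some lists did not keep the same direction across these groups, among them those of tissues that line or cover the brain, such as the choroid plexus genes described above. The median of immediate early genes was −0.21 in WT, 0.43 in JHT females and −0.78 in JHT_3xTgAD males. That of pituitary and pineal genes was −1.18 in WT and 0.31 in JHT females. The median of the ependymal genes was −0.44 in WT, or −0.10 there without mouse 10 or with slide as a random block. It was between 0.29 and 0.98 in all other groups but JHT_3xTgAD males (−0.25). That of the meningeal genes was −1.32 in WT, between −1.56 and −0.18 in 4 other groups and 0.19 in JHT_3xTgAD females. Over all genes the tissue difference was called for 15%, 17.2% and 27.3% in JHT, 3xTgAD and JHT_3xTgAD females and for 28% and 21.9% in 3xTgAD and JHT_3xTgAD males. Hoxc4, on no WT hippocampal array well above background, was the leading gene whose fitted difference varied most between groups, with −3.46 in JHT_3xTgAD females (adjusted p = 0.0217) beside −7.10 in WT.

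One brain array, of a JHT_3xTgAD male, lay on the slide of the WT hippocampi. For 536 of the 553 called genes with a symbol that were well above background and differed by at least 2 (96.9%), its level was nearer to the mean of the WT brains than to that of the WT hippocampi, and so it was for all 20 leading genes. Of the 140 genes named from the WT comparison, 44 lost their call and 2 turned direction with slide as a fixed block in place of the mouse, and slide and tissue still cannot be told apart within WT.

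**Figure D5:**
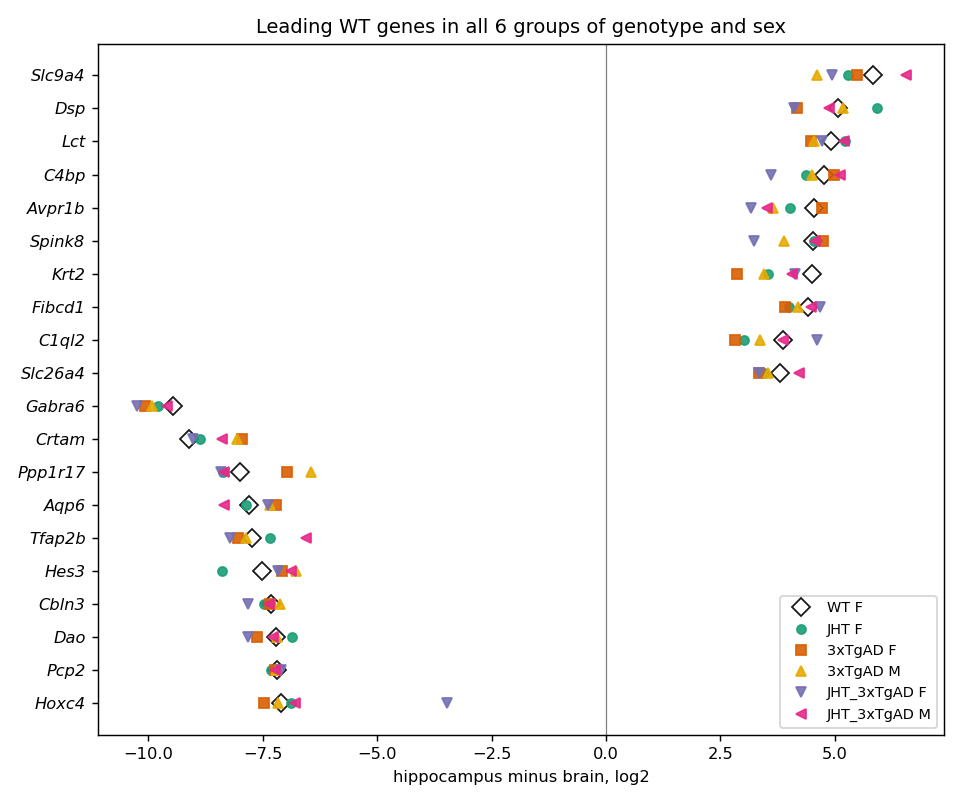
Difference between hippocampus and brain (log2) of the 20 leading WT genes in the 6 groups of genotype and sex, with WT as open diamonds. Each gene lies on the same side of 0 in all 6 groups, and the JHT_3xTgAD females stand apart for Hoxc4 at −3.46.

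Whether any tissue difference belonged to WT was tested as the WT difference minus the mean difference of the JHT, 3xTgAD and JHT_3xTgAD females. Only 4 of 36717 genes and transcripts (0.0109%) passed in limma's test, all with a more negative difference in WT, and 2243 had an unadjusted p under 0.05. Olfr203, an olfactory receptor gene, gave 5.62, 7.11 and 6.65 in the WT brains and 2.24, 2.25 and 2.23 in the WT hippocampi. Cyp2c66, a cytochrome P450 gene, gave 6.26, 6.75 and 5.99 in the WT brains and was on no WT hippocampal array well above background. On the other 27 arrays of the series neither gene was well above background, and their highest levels there were 3.90 and 3.12. The remaining 2, the vomeronasal receptor gene Vmn1r10 and a transcript known only by its position, were well above background on 1 WT brain array each.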

How the data were processed

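RNA of 15 mice was measured in hippocampus and brain on 1 Agilent 1-colour array per mouse and tissue, labelled with Cy3. The authors deposited scanner files of Feature Extraction 12.0.3.1 that hold, for every spot, a processed intensity after background subtraction but before any normalization between arrays. They also deposited scores, which matched the Z score within each array of the log10 processed signal to within 0.005. Array coordinates are in build mm9.

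After removal of 3671 control spots and of outlier spots, quantile normalization of the log2 processed intensities was run across the 30 arrays, and each gene was represented by its probe of highest average signal. The study's methods name quantile normalization, log2 values and this choice of probe, but start from raw probe intensities and mention no removal of outlier spots. Of 55681 probes 28331 were matched to 1 symbol through their accessions. The fit used limma 3.58.1 (R 4.3.3, with version 1.17.8 of the package data.table) over all arrays with the mouse as a fixed block (9 residual degrees of freedom), since both tissues came from the same animals by the mouse number in the labels. Deviations of the same WT mouse in both tissues correlated at 0.085, 0.142 and −0.0862 over 23451 genes. P-values were adjusted by Benjamini-Hochberg over all genes at 0.05. With 3 pairs an exact two-sided sign-flip test of 1 gene cannot go below p = 0.25. On simulated data of 36575 genes in all, 56 of 100 genes shifted by 1 and 78 of 100 shifted by 2 were called, and so were 13 unchanged genes. The simulation shifted these genes in WT alone and had no slide effect. In the data far more genes were called, which loosens the cutoff of the adjustment, so these shares do not carry over. "At least" gives a bound against the lowest signal well above background, where no array of a tissue was well above background.

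The comparison, the 29 lists (332 genes) and 13 symbol groups were chosen with earlier results of these data known. Named were the 10 genes with a symbol and the largest fitted, called difference in each direction (same direction in all 3 mice, well above background on all 3 arrays of a tissue), examples from the lists and groups, and the genes called for WT against other females. List counts and medians have no test. Some list members are not reported here by name.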

Additional observations from a re-analysis of the deposited data

Results flagged for a closer look

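The tissue difference in WT differed from the mean of that in the other 3 female groups for 4 genes and transcripts, and this was tested as a contrast in the fit over all arrays. In all 4 the contrast is a fitted value set against arrays where the probe was not well above background, so its size was not measured. For Olfr203 the WT difference minus that of the others was −4.25 on the log2 scale (adjusted p = 0.00388), and for Cyp2c66 it was −3.99 (adjusted p = 0.000289), while in WT the hippocampus was at least 3.89-fold and 3.58-fold lower. The value was −2.30 for Vmn1r10 (adjusted p = 2.4e-05), which was well above background on 1 WT brain array and whose WT brain levels were 4.16, 4.75 and 4.61, with the highest of the other 27 arrays at 2.26. For the transcript on chromosome 1, 81854900 to 81906900, forward strand, build mm9, it was −1.91 (adjusted p = 1.2e-05), with 4.35, 4.25 and 4.23 in the WT brains and at most 2.59 elsewhere, and 1 WT brain array well above background. The 3 WT brain arrays shared a slide with 3 other brain arrays, on which none of the 4 was well above background, and all 4 were also called with slide as a random or as a fixed block.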

How the results depend on the processing

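Against 9569 genes called in WT, the same arrays with no replicate block, that is without pairing by mouse, gave 10139. The count moved to 3981 with only the WT arrays and the mouse as block, or 4029 where these were also normalized alone, to 4973 with slide as a random block and 2684 with slide as a fixed block, both in place of the mouse, and to 3429 with a difference of at least 1, and to 5114 to 6882 without 1 WT mouse. In the first, 3482 genes were shared with the 9569, and 31 of the 140 named genes lost their call. Its list counts fell too, among others to 1 higher and 4 lower neocortical layer genes and 1 lower gene of meninges and fibroblasts. The other settings (only the WT arrays without the block, 75th percentile scaling, median signals with normexp, deposited scores, a filter on dim genes, the mean of a gene's probes, no mouse 0, adjusted p under 0.1) gave 8832 to 12220. With slide as a fixed block, tissue and slide were linked only through 1 brain array, and list counts fell, among others to 2 higher and 1 lower GABA neuron genes, 5 and 1 neuropeptide receptors, 8 and 9 potassium channel genes and 0 and 1 Zic genes. The cause was not tested.

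Of the 4 genes called for WT against the other females, the count was 13 without the replicate block, 1897 with slide as a fixed block, 1 with normexp, 2 with the dim filter, 7 at adjusted p under 0.1 and 11 to 21 without 1 WT mouse. Among named genes, the direction reversed for Nr3c1 (0.38) and Tbr1 (0.13) with the mean of their probes, and for Prl (0.60) and Tmem119 (−0.050) with slide as a fixed block. Of 36 named genes with several probes well above background, 2 had probes of opposite direction (Tbr1 and Nr3c1), and for 17 another probe gave a fold over 1.5 times away, counting fitted differences of probes near background too. With normexp, medians of lists with dim genes moved towards 0, from −3.82 to −1.73 for cholinergic and from −2.07 to −1.26 for hypothalamic genes. Dim genes had their differences limited by the background, and 3 mice limit the precision throughout.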
